A study of Mus musculus with 11 samples.

Results

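Clones 20 and 23 are 2 of 11 lines of mouse embryonic stem cells that were each picked as a colony, grown up and sequenced once. They were set against the other 9 clones because earlier results from the same counts showed that both carried higher RNA from a stretch of chromosome 1 that runs from Dsel to Kcnt2, and that they were alike across the genome. Values of clones 20 and 23 against the other 9 are therefore a description, and no test of that difference is used as support. The count table lists 22369 protein-coding genes, of which 12479 were analysed, those that averaged 1 or more CPM (counts per 1000000 counts of the library) over the 11 clones. The stretch holds 168 genes of the table. Of these, 104 reached that mean, 55 had counts below it and 9 had no count in any clone. The filter uses the mean over all 11 clones, so a gene that is high in 2 clones passes it a little more easily.

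All 11 clones were made from EBRTcH3, an embryonic stem cell line in which the tetracycline-controlled transactivator is made from the ROSA26 locus. Each carries several barcoded piggyBac reporters driven by the mouse PGK promoter, delivered with the mPB transposase. Each colony was picked after a sort for high eGFP, so the 11 clones form 1 labelled group and none is a line without reporters. The cells were kept in medium conditioned by BRL cells with leukemia inhibitory factor, the MEK inhibitor PD0325901 and the GSK-3 inhibitor CHIR99021. Each clone has 1 library, so the spread below is between clones and there is no repeat library of clone 20 or 23. Reporter insertion sites and DNA copy number were not analysed here.

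Embryonic stem cells in these inhibitors are kept close to the naive state of the early epiblast, held by a network of transcription factors that includes Pou5f1, Sox2, Nanog, Esrrb and Tfcp2l1. Tfcp2l1 lies in the stretch, as do Nr5a2, an orphan nuclear receptor that can drive Pou5f1, and Zfp281, a zinc finger factor of the exit from naive pluripotency. The stretch also holds Mdm4, an inhibitor of p53, and Mcm6, a subunit of the replicative helicase. Neighbouring genes generally have promoters of their own, and the genes of the stretch do not all serve a single function.

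The libraries of clones 20 and 23 held 12260732 and 16868500 counts, against 10846005 to 16809970 (median 14378599) in the other 9. A count was found for 16030 and 16469 genes in the pair and for 15910 to 16634 in the others. A count of 3 was worth 0.248 CPM in clone 20 and 0.178 CPM in clone 23. Pou5f1, Sox2, Nanog, Esrrb and Zfp42, markers of stem cells, stood in the range of the other clones, and Tfcp2l1, which lies in the stretch, stood above it. Pou5f1 was at 885 CPM in clone 20 and 855 CPM in clone 23, against 769 to 970 CPM (median 840) in the others. Nanog was at 739 and 721 CPM, against 621 to 936 CPM (median 749). Summed markers of other cell types stood in the range of the other clones, except for those of the primitive streak and mesoderm in clone 23. Of 11 fibroblast markers, 6 had no count in either clone (Col3a1, Dcn, Lum, Fap, Postn and S100a4). The 11 together summed to 14.7 and 16.6 CPM against 9.58 to 25.9 CPM in the others. Of 8 liver markers, which bear on the BRL cells of the conditioned medium, Alb, Afp and Serpina1a had no count, and the sums were 15.7 and 14.3 CPM against 10.9 to 26.1 CPM. Primitive endoderm markers summed to 494 and 493 CPM against 417 to 758 CPM, trophoblast markers to 86.8 and 97.0 CPM against 71.1 to 132 CPM, and neural markers to 99.0 and 121 CPM against 56.9 to 195 CPM. Primitive streak and mesoderm markers summed to 17.9 and 20.8 CPM against 7.2 to 19 CPM, so that clone 23 stood just above the others. Most of that sum was Eomes, at 14.6 and 15.7 CPM against 2.94 to 14.8 CPM. In bulk RNA, more cells of a type and more RNA per cell cannot be told apart.

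The stretch is a block of neighbouring genes in which both clones were higher by a similar amount. For each clone the shift of a gene was taken as log2(CPM + 1) minus the median of the other 9, or of the remaining 8 for a clone of the 9. The median shift over the 104 genes was 0.58 in clone 20 (quartiles 0.43 and 0.71) and 0.55 in clone 23 (quartiles 0.40 and 0.66). In the other 9 it ran from -0.05 to 0.05, with a mean of 0.01 ± 0.04 (SD, n = 9). As ratios of CPM to the median of the other 9, called fold below, the medians were 1.5 in clone 20 (quartiles 1.37 and 1.65) and 1.48 in clone 23 (quartiles 1.35 and 1.63), and 0.961 to 1.05 in the others. The genes of the stretch took 1.47% and 1.46% of all counts in the pair and 0.926% to 1.05% in the other 9. The remaining 581 tested genes of chromosome 1 had a median shift of 0.01 in clone 20 and 0.02 in clone 23.

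**Figure D1:**
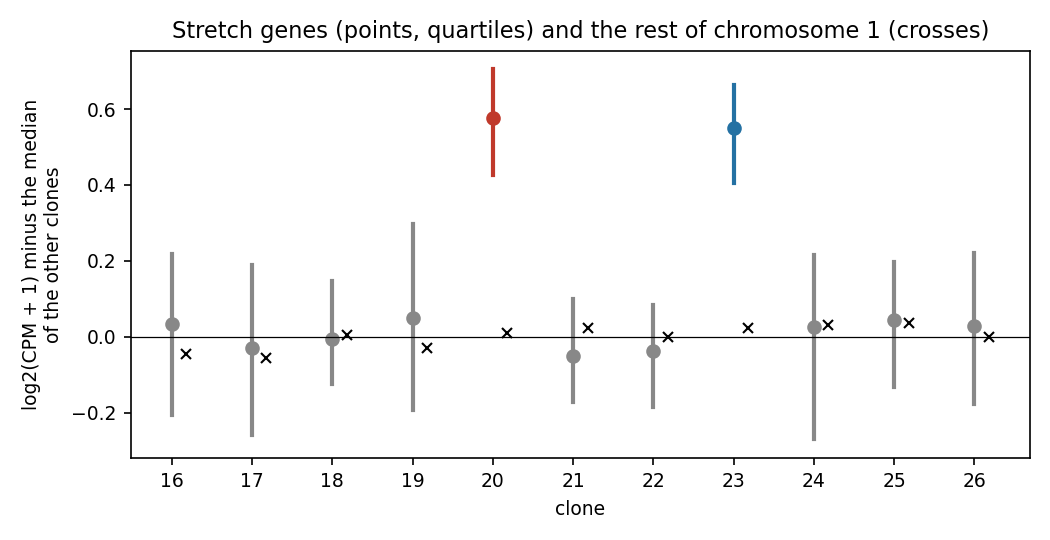
Median shift of the 104 tested stretch genes in each clone, in log2(CPM + 1) against the other clones (points, with lines from the lower to the upper quartile over genes), and the median of the rest of chromosome 1 (crosses). Clones 20 (red) and 23 (blue) stand at 0.58 and 0.55, and the other 9 (grey) between -0.05 and 0.05.

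Both clones lay above every other clone, with no fold asked, for 61 of the 104 stretch genes, or 58.7%. The share over all 12479 genes was 1.83%, and over the 12375 genes outside the stretch 1.35%. Both lay below every other clone for 0 of 104 in the stretch, against 0.986% of all genes and 0.994% of those outside. With at least 1.5-fold over the median asked of each clone, 22 of 104 remained, or 21.2%, against 0.529% of all genes and 0.356% outside. The stretch was chosen on these values, so nothing is read from the contrast with the background. Among the 104, both clones were above the median of the other 9 in 98. The number clear of the others followed the level: 3 of 14 genes averaging 1 to 5 CPM, 8 of 25 at 5 to 20 CPM, 25 of 37 at 20 to 100 CPM and 25 of 28 at 100 CPM or more. In clone 20 the median fold did not follow the level, at 1.52, 1.42, 1.56 and 1.5. In clone 23 the median fold rose with the level, at 1.37, 1.46, 1.48 and 1.5.

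The ends of the stretch, Dsel and Kcnt2, were set on these same values. A step at each end is therefore built in, and the tested genes around the ends are given as a description. The last tested gene before it, Vps4b, which disassembles ESCRT-III, was at 138 and 134 CPM in clones 20 and 23, inside the 113 to 143 CPM (median 134) of the others. Kdsr, a sphingolipid enzyme, was at 41.4 and 39.0 CPM and Phlpp1, an Akt phosphatase, at 40.5 and 38.4 CPM, both inside the range of the others. The first gene inside, Dsel (ENSMUSG00000038702), was at 10.1 and 11.2 CPM against 3.66 to 8.23 CPM (median 6.80). The next, Tsn, which encodes the nucleic-acid-binding protein translin, was at 208 CPM in both clones against 120 to 139 CPM (median 130). At the far end Kcnt2, a sodium-activated potassium channel gene, was at 15 and 16.4 CPM against 1.43 to 14.7 CPM (median 7.22), the highest of the others standing close to clone 20. The gene after it, Cdc73, a subunit of the PAF1 complex, was at 131 and 137 CPM, inside 109 to 159 CPM (median 130). Glrx2 and Trove2 followed, at 18.3 and 16.3 CPM and at 49.0 and 58.8 CPM, also inside. Over the 25 tested genes before the stretch the median shift was 0.03 and 0.00 in the 2 clones, and over the 25 after it -0.10 and 0.02. Single flanking genes could be higher. Pam, before the stretch, had folds of 1.55 and 1.23, and Ivns1abp, after it, 1.23 and 1.29, and both overlapped the other clones.

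**Figure D2:**
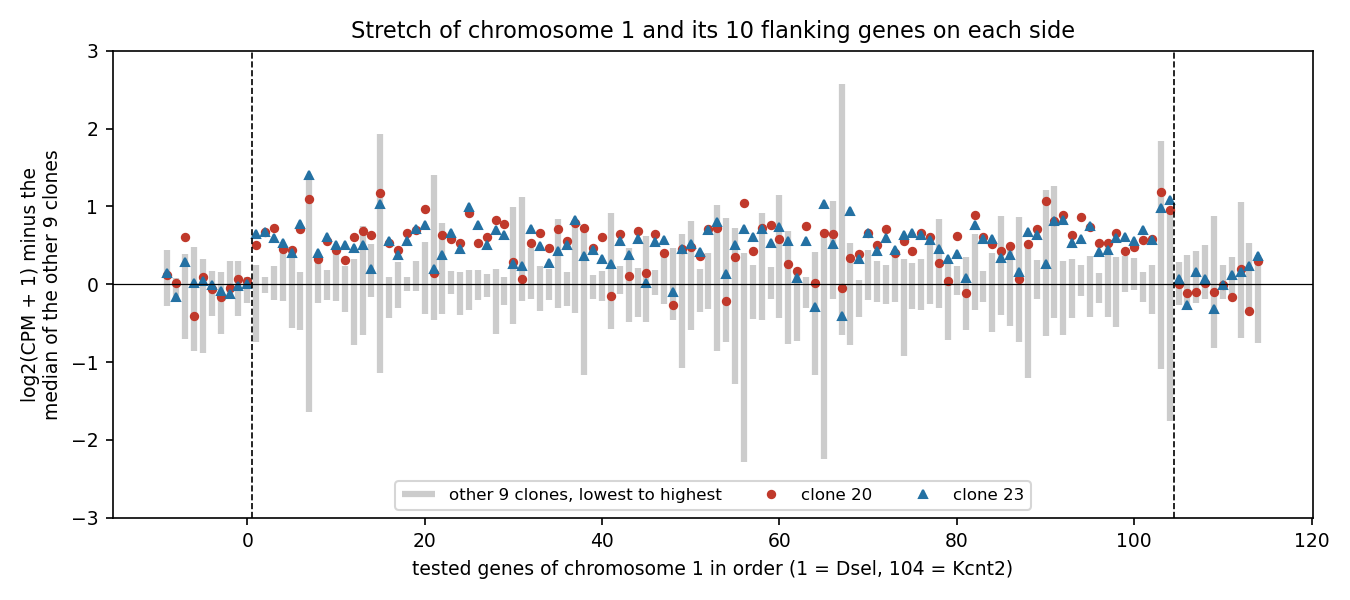
Shift of each tested gene in clones 20 (red circles) and 23 (blue triangles), in log2(CPM + 1) minus the median of the other 9 clones, in gene order from 10 genes before Dsel to 10 genes after Kcnt2. Grey bars span the other 9 and dashed lines mark the ends. Most points of the stretch lie above 0, with medians of 0.58 and 0.55, and those outside it lie around 0.

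The 3 pluripotency regulators of the stretch were all higher than the median, and 2 were clear of the other clones. Over the whole stretch 58.7% of genes were clear of them. Tfcp2l1, a naive factor that acts downstream of leukemia inhibitory factor, was at 2526 CPM in clone 20 and 2474 CPM in clone 23, against 1262 to 2379 CPM (median 1869). Both clones were above all 9, though by little over the highest. Zfp281 was at 290 and 267 CPM against 168 to 221 CPM (median 200). Nr5a2 was at 158 and 148 CPM against 80.7 to 152 CPM (median 109), and 1 of the other 9 stood above clone 23. Of the 24 tested genes of a core and naive pluripotency list over the whole genome, which holds Tfcp2l1 and Nr5a2, Tfcp2l1 alone had both clones above the others. The median folds of that list were 0.997 and 0.974.

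Of the genes of mitosis and DNA replication, 8 of 9 were above every other clone and 5 of 9 by at least 1.5-fold, beside 58.7% and 21.2% of the whole stretch. This and the other lists of stretch genes were made with earlier results known, and being clear of the others followed the level, so the counts are not a ranking of functions. Mcm6 was at 853 and 782 CPM against 308 to 554 CPM (median 482), folds of 1.77 and 1.62. Kif14, a kinesin of cytokinesis, was at 130 and 131 CPM against 58.0 to 100 CPM (median 77.6). Aspm, a spindle pole protein, was at 280 and 277 CPM against 143 to 221 CPM (median 187). The ubiquitin-conjugating enzyme Ube2t, which serves the Fanconi anemia pathway, was at 42.9 and 42.1 CPM against 21.1 to 33.8 CPM (median 26.8). Nek7, a mitotic kinase, was at 78.3 and 75.3 CPM against 33.3 to 62.9 CPM (median 49.3). In this list Kif21b alone overlapped, at 94.6 and 94.0 CPM against 39.3 to 129 CPM (median 53.3).

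Of the chromatin and transcription factors, 7 of 9 tested genes were above every other clone and 3 of 9 by at least 1.5-fold. Over the whole stretch the shares were 58.7% and 21.2%. Nucks1, a chromatin-associated nuclear protein, was at 1790 and 1662 CPM against 829 to 1282 CPM (median 1112). Kdm5b, an H3K4 demethylase, was at 806 and 844 CPM against 287 to 685 CPM (median 546). The cyclin Ccnt2, a partner of CDK9, was at 391 and 413 CPM against 240 to 295 CPM (median 262). Rbbp5, a core subunit of the H3K4 methyltransferase complexes, was at 252 and 250 CPM against 123 to 203 CPM (median 154). Gli2, the transcription factor of Hedgehog signalling, was at 238 and 249 CPM against 96.7 to 163 CPM (median 146). Sox13 and Elf3 overlapped the others, Sox13 at 53.7 and 50.6 CPM against 28.3 to 55.2 CPM (median 47.7) and Elf3 at 79.9 and 90.3 CPM against 53.4 to 119 CPM (median 66).

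All 8 tested genes of RNA processing and translation lay above every other clone, 3 of them by at least 1.5-fold. This stands beside 58.7% and 21.2% of the whole stretch, and the median folds of the list were 1.55 and 1.49. Dars, the cytosolic aspartyl-tRNA synthetase, was at 490 and 441 CPM against 236 to 303 CPM (median 285). The importin Ipo9 was at 381 and 376 CPM against 214 to 283 CPM (median 250). Snrpe, a spliceosomal Sm protein, was at 124 and 109 CPM against 59.6 to 78.6 CPM (median 73.7), and the RNA helicase Ddx18 at 109 and 102 CPM against 64.9 to 74.0 CPM (median 69.2). For each of these genes the other 9 clones spanned a narrow range and the pair stood well above it.

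Metabolism and transport genes were above every other clone in 9 of 14, beside 58.7% of the whole stretch. Zranb3, a DNA translocase listed with them, was at 195 and 207 CPM against 81.6 to 118 CPM (median 103), close to 2-fold in both clones. Actr3, a subunit of the ARP2/3 complex, was at 164 and 167 CPM against 95.6 to 125 CPM (median 101). Insig2, which retains SREBP in the endoplasmic reticulum, was at 42.1 and 42.5 CPM against 21.1 to 30.8 CPM (median 28.7). No other gene of a 17-gene cholesterol synthesis list had both clones above the rest. Atp2b4, a plasma membrane calcium pump, was at 188 and 243 CPM against 24.1 to 189 CPM (median 118), where 1 other clone stood above clone 20.

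Of 15 tested signalling genes of the stretch, 4 were clear of the other clones and 0 of 15 by at least 1.5-fold. The shares of the whole stretch were 58.7% and 21.2%. Being clear followed the level, so nothing is read from the count. The median folds of the list were 1.42 and 1.36. Inhbb, which encodes an activin subunit, had a high fold in both clones, 2.21 and 2.74, at 38.5 and 47.8 CPM. The others ran from 4.90 to 45.6 CPM (median 17.5) for it, so clone 20 was not clear of them. The kinase Cdk18 was below the median in both clones, at 13.6 and 15.4 CPM against 11.7 to 23.1 CPM (median 16.5). Cxcr4, the chemokine receptor, was low, at 1.24 and 1.18 CPM.

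Of 3 genes of the p53 pathway in the stretch, Mdm4, Phlda3 and Btg2, 1 was above every other clone, beside 58.7% of the whole stretch. Mdm4 was at 219 and 248 CPM against 119 to 194 CPM (median 163). Ppp1r15b, the constitutive partner of the eIF2α phosphatase, was listed with them though it is no p53 gene, and it was also above every other clone, at 694 and 593 CPM against 358 to 478 CPM (median 409). The p53 targets Phlda3 and Btg2 overlapped, Phlda3 at 30.5 and 32.5 CPM against 17 to 53.9 CPM (median 29.0) and Btg2 at 33.2 and 30.6 CPM against 18.3 to 45.2 CPM (median 21). Over the genome, 22 p53 targets were tested, 2 of them in the stretch. Their median folds were 0.911 and 0.929, beside 1.01 in both clones for all genes tested. Gtse1, which restrains p53 in G2, was the 1 with both clones below the rest, at 164 and 165 CPM against 178 to 309 CPM (median 225), and 0 of 22 had both above. The shares of all genes, 0.986% below and 1.83% above, are close to these counts, so nothing is read from them.

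Beside 58.7% of the whole stretch, 4 of 8 tested genes of neural adhesion and channels were above every other clone. Besides Dsel and Kcnt2, these were Lrrn2, a leucine-rich repeat membrane protein, at 49.5 and 39.0 CPM against 4.05 to 31.5 CPM (median 23.5), and Nav1 at 149 and 155 CPM against 67.3 to 137 CPM (median 103). Ppfia4, a liprin, was at 106 and 161 CPM against 48.1 to 121 CPM (median 83.1). Cntn2, Nfasc and Nckap5 overlapped the others.

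Not all stretch genes were higher. In 6 of the 104 at least 1 clone was under the median of the other 9, and in 2, Cdk18 and Chit1, both were. The chitinase gene Chit1 was at 0.662 and 0.296 CPM against 0.0945 to 9.24 CPM (median 0.715). The other 4 were Lax1, Lmod1, Cntn2 and Pm20d1. At the upper end, 6 genes were at least 2-fold in both clones, among them Inhbb, Steap3, Shisa4, Kcnt2 and Rassf5. Of these, Shisa4 and Kcnt2 were clear of the other 9. The ferrireductase gene Steap3 was at 23 and 20.9 CPM against 3.84 to 39.7 CPM (median 9.67), so 2 other clones were above at least 1 of the pair. Just inside the 1.5-fold limit stood Nifk, with folds of 1.66 and 1.51, and just outside it Nucks1, with 1.61 and 1.49.

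Within the stretch clones 20 and 23 differed from each other no more than elsewhere. The SD over genes of the difference between them was 0.20 on the log2(CPM + 1) scale in the stretch and 0.21 outside it. The difference ran from -0.61 to 0.80 in the stretch, and 0 of 104 genes were 2-fold apart.

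Outside the stretch no run of genes of that size and height was seen. For the 20 chromosomes with the stretch left out, the median shift of either clone lay between -0.06 and 0.05. Among windows of 25 neighbouring tested genes, the median shift of 1 of the 2 clones reached at most 0.27, on chromosome 4, and at least -0.21, on chromosome 15. The highest window by the smaller of the 2 shifts was 0.16, and the lowest window by the larger of them was -0.19.

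Outside the stretch, 44 genes (0.356%) had both clones above the other 9 by at least 1.5-fold and 26 genes (0.21%) had both below. With no fold asked, the counts were 167 (1.35%) and 123 (0.994%). The higher genes lay on 16 chromosomes, at most 8 on chromosome 7, and 4 on chromosome 1. The lower genes lay on 12, at most 4 on chromosome 8. Most were low: 22 of the 44 and 9 of the 26 averaged 5 CPM or more, and 5 and 1 averaged 50 CPM or more. The count of lower genes depended on clone 24: without it, 57 had both clones below.

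Sema5a and Tgfbi had high folds among the 44. Sema5a, a semaphorin, was at 6.95 and 7.46 CPM against 0.440 to 2.65 CPM (median 1.5), folds of 4.62 and 4.96. Tgfbi, an extracellular matrix protein induced by TGF-beta, was at 53.1 and 58.6 CPM against 9.83 to 34.8 CPM (median 14.3). For both genes the pair was well clear of the highest other clone. Igsf21, an immunoglobulin superfamily protein, was at 17.6 and 21.8 CPM against 2.71 to 13.6 CPM (median 7.55). Rnf144b, a ubiquitin ligase, was at 9.84 and 9.71 CPM against 1.97 to 6.01 CPM (median 4.22), and the secreted protein Scube2 at 11.3 and 8.58 CPM against 2.52 to 5.54 CPM (median 3.97). Chrd, a BMP antagonist, was at 6.86 and 7.04 CPM, just above 1.99 to 6.55 CPM (median 3.41). The remaining named genes, Calb2, Cap2, Irf8, Trim47, Ppp1r3c, Fcgr2b, Sult5a1 and Runx1t1, had folds of at least 1.89 in each clone.

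The higher genes that averaged 50 CPM or more included Fblim1, Rragd, Rnf17 and Sulf1, which were picked out after their values were seen. Fblim1, a filamin-binding protein of cell junctions, was at 693 and 661 CPM against 109 to 530 CPM (median 431). Rragd, a Rag GTPase of mTORC1 signalling and a target of TFEB and TFE3, was at 253 and 215 CPM against 63.3 to 179 CPM (median 121). Rnf17, a tudor-domain germline gene, was at 181 and 193 CPM against 82.5 to 174 CPM (median 109). The sulfatase Sulf1, on chromosome 1 but outside the stretch, was at 90.9 and 82.1 CPM against 27.9 to 67.3 CPM (median 46.2).

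Among the lower genes, Epha4, an ephrin receptor, had the most counts. It was at 160 and 158 CPM against 207 to 431 CPM (median 342), folds of 0.469 and 0.464, and it lies on chromosome 1 outside the stretch. Pcdh19, an X-linked protocadherin, was at 1.74 and 1.72 CPM against 3.09 to 17.2 CPM (median 5.67), folds of 0.306 and 0.303. In both genes clones 20 and 23 were nearly equal. Acss2, the cytosolic acetyl-CoA synthetase, was at 23.2 and 24.7 CPM against 28.5 to 55.8 CPM (median 43.8). Tbc1d9 was at 14.9 and 14.1 CPM, just under 15.4 to 46.4 CPM (median 27.6). Camkv, a kinase-like protein of neurons, was at 4.38 and 3.67 CPM against 5.29 to 10.6 CPM (median 9.64), and the collagen gene Col5a3 at 1.49 and 1.48 CPM against 2.18 to 6.58 CPM (median 3.57). The other named lower genes were Fam19a5, Asprv1, Tspo2, Dysf, Socs1, Tent5c, Mroh4, Nat2 and Rfx4, which had at most 4.32 CPM in either clone.

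**Figure D3:**
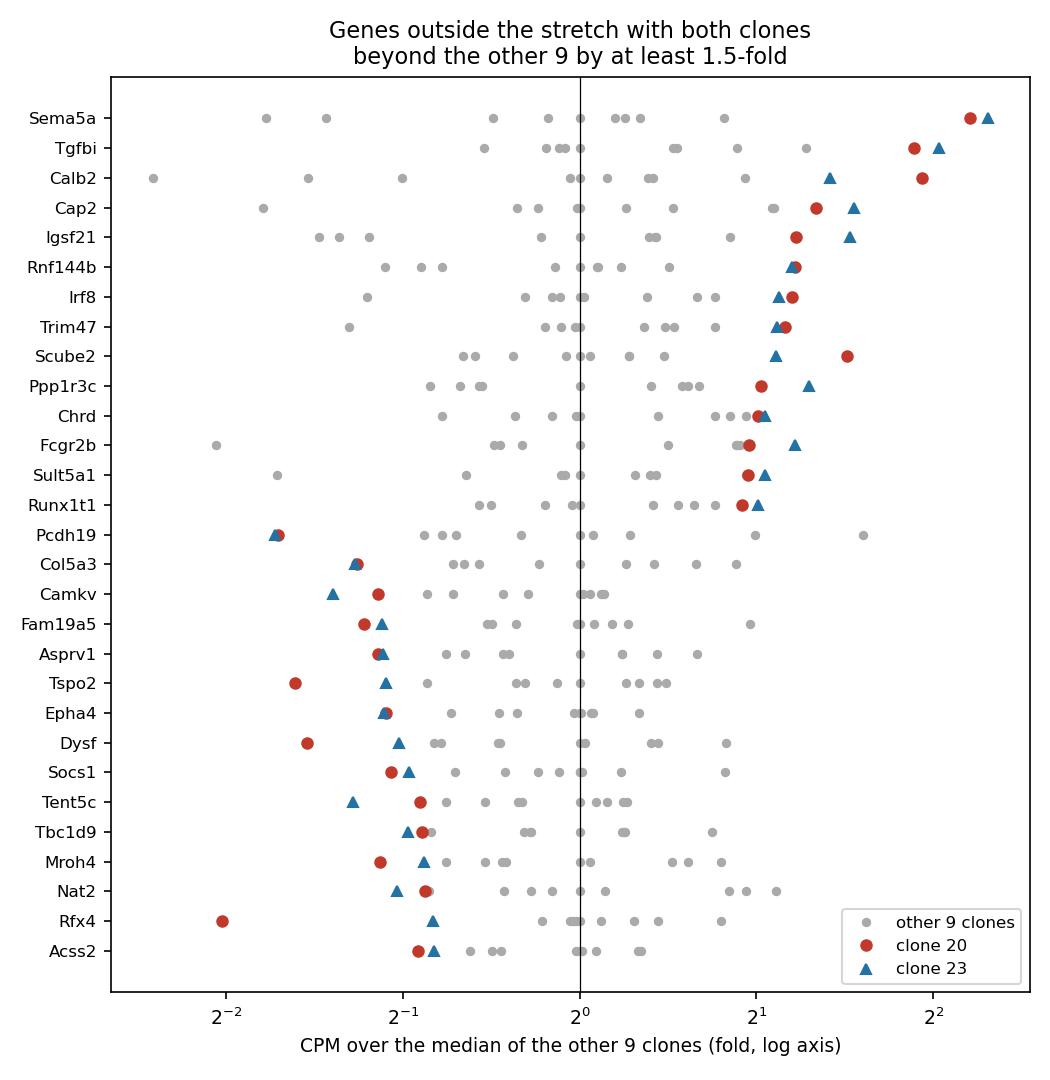
CPM of each clone over the median of the other 9 clones (fold, log axis) for the named higher and lower genes outside the stretch, for clone 20 (red circles), clone 23 (blue triangles) and the other 9 (grey). Sema5a is farthest above at 4.62 and 4.96, and clones 20 and 23 lie beyond the grey points in each line.

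The pathways acted on by the culture medium were counted in the same way. The share over all tested genes was 1.83% above and 0.986% below, so a list of this size would hold few or no such genes at that share, and a count of 0 is not a result about a list. With no fold asked, both clones were above the others for 0 of 14 genes of the MEK/ERK response, 0 of 6 Wnt targets, 0 of 11 targets of LIF and STAT3 and 0 of 10 genes of the primed epiblast, and below them for 0 in each. Of 12 genes of Nodal signalling 2 were above: the Nodal co-receptor Tdgf1, at 1133 and 1150 CPM against 860 to 1130 CPM (median 921), and Skil, a SMAD co-repressor, at 118 and 98.2 CPM against 79.1 to 98.0 CPM (median 87.0). Of 9 genes of DNA methylation 1 was above, the dioxygenase Tet1, at 1201 and 1200 CPM against 744 to 1196 CPM (median 1122). In Tdgf1, Tet1 and Skil at least 1 of the pair exceeded the highest other clone by very little. Both clones were clear of the others for 0 of 23 genes of glycolysis and hypoxia, 0 of 14 of the stress responses, 0 of 12 germline genes and 0 of 6 genes of the 2-cell-like state. The last list had median folds of 1.71 and 1.89 within the spread of the others. Its Zscan4c, at 3.64 and 2.66 CPM against 0.159 to 5.32 CPM (median 1.13), has near-identical copies among which reads may be split.

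For completeness, an edgeR quasi-likelihood fit of the pair against the other 9 called 8 genes higher (0.0641% of those tested) and 0 lower (0%) at an adjusted p under 0.05. At an unadjusted p under 0.05 it found 254 genes in either direction, and DESeq2 called 37 higher and 2 lower. The 8 were Tsn, Ddx18, Actr3, Zranb3, Dars, Snrpe and Ccnt2 of the stretch, and Npc1l1, which was high in clone 20 alone. The pair and the stretch were chosen on this same contrast, so the p-values behind these counts are no evidence for the difference, and nothing is read from them. Leaving out 1 clone at a time gave 0 to 6 calls: 0 without clone 18 or 20, 2 without 23 or 25, 4 without 19, 22, 24 or 26, and 5 without 17 or 21.

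Across the genome clones 20 and 23 were the most alike of the 55 pairs of clones, which was part of the reason they were chosen. They had 15 genes at least 2-fold apart on the CPM + 1 scale, against 138 to 1559 (median 647) in the other 54 pairs. The SD over genes of their log2 difference was 0.21, against 0.31 to 0.72 in the other pairs. The squared difference of a typical gene, taken as the median over genes, was 2.62 times that of counting noise. In the other pairs it was 5.46 to 28.8 times. They were counted as 2 samples because the labels list them so, and the ratio cannot decide it. Variation between preparations or runs of 1 sample was not measured. The nearest other pairs were clones 18 and 23 with 138 genes, 23 and 25 with 167, 18 and 20 with 215 and 20 and 25 with 217. The labels do not give the descent of the clones.

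**Figure D4:**
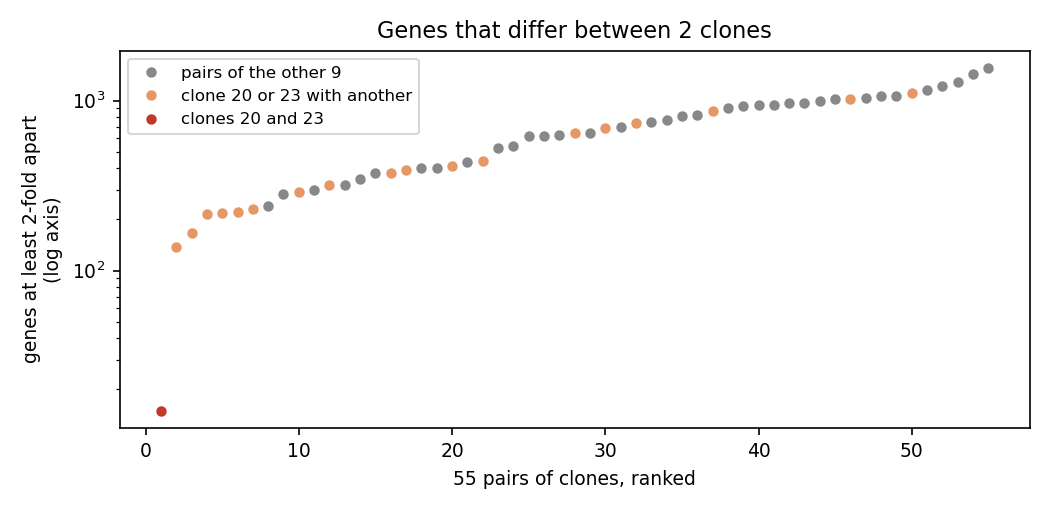
Number of genes at least 2-fold apart (log axis) for each of the 55 pairs of clones in rank order. Clones 20 and 23 (red) have 15, pairs of 1 of them with another clone (orange) start at 138, and pairs among the other 9 (grey) make up the rest.

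Against each other, clones 20 and 23 differed by 1 gene past the test, Npc1l1 (ENSMUSG00000020447, chromosome 11), an intestinal and hepatic cholesterol transporter. The contrast was tested with edgeR (quasi-likelihood), adjusting by Benjamini-Hochberg over 12479 genes, with the spread taken from the other 9 clones and each lone library assumed to vary like them. Of the genes tested, 0.00801% were called. Npc1l1 had 349 counts (28.9 CPM) in clone 20 and 7 counts (0.414 CPM) in clone 23, against 0.397 to 1.01 CPM (median 0.577) in the others. The log2 fold change was 6.09 ± 0.72 (SE) with an edgeR adjusted p of 0.0407. Clone 20 alone stood apart, and clone 23 was inside the others. Npc1l1 averaged 3.16 CPM and passed the filter only through clone 20, so its being tested at all rests on the value that was called. With no filter it was not called. The call was lost on leaving out clone 16, 17, 18, 19, 21, 24, 25 or 26 in turn, with edgeR adjusted p from 0.0503 to 0.125, while the fold change stayed between 6.09 and 6.10. Its tested neighbours did not share the difference: Nudcd3 was at 137 and 145 CPM and Ddx56 at 84.9 and 89.0 CPM in clones 20 and 23.

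Other large differences between the 2 clones are given as descriptions. The spread in the test was taken from the other 9 clones, which were less alike than clones 20 and 23. Slc35e4, a solute carrier gene also on chromosome 11, was at 35.4 CPM in clone 20 and 3.73 CPM in clone 23, against 3.18 to 5.47 CPM (median 4.21). Its log2 fold change was 3.24 ± 0.43 (SE), with an adjusted p of 0.0558 by edgeR and 4.67e-11 by DESeq2. Fbxo25, an F-box protein on chromosome 8, was at 54.9 and 14.4 CPM against 14.3 to 24.5 CPM (median 18.7), a log2 fold change of 1.93 ± 0.37 (SE), with an adjusted p of 1 by edgeR and 0.00461 by DESeq2. Neither Slc35e4 nor Fbxo25 was called in any of the edgeR alternatives. For Npc1l1 DESeq2 gave a log2 fold change of 6.12, and the gene entered that fit too only through its value in clone 20. In Slc35e4 and Fbxo25, clone 20 was the one outside the range. Neighbours again stood alike in the 2 clones: Dusp18 at 8.77 and 7.75 CPM and Tcn2 at 55.9 and 52.1 CPM beside Slc35e4, and Coprs at 30.9 and 31.0 CPM and Tdrp at 45.3 and 50.4 CPM beside Fbxo25.

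Of all tested genes, 15 (0.12%) were at least 2-fold apart on the CPM + 1 scale, 9 higher in clone 20 and 6 in clone 23. Besides the 3 above, Tgfbr3, the betaglycan co-receptor of TGF-beta, was at 20.6 CPM in clone 20 and 2.07 CPM in clone 23, both inside the 1.44 to 27.8 CPM (median 2.24) of the others. Alox5ap and Clu were likewise higher in clone 20 and inside the range of the others. In clone 23 the higher genes included Disc1, a neurodevelopmental scaffold protein, at 1.65 and 7.10 CPM against 1.11 to 2.32 CPM (median 1.52). It also included 3222401L13Rik, at 5.95 and 18.1 CPM against 4.85 to 7.75 CPM (median 5.88). In both, clone 23 was the one outside the range. Pnpla3, a lipid droplet hydrolase, was at 7.77 and 23.1 CPM against 6.58 to 24.8 CPM (median 8.29), and Igfbp4, an IGF-binding protein, at 9.35 and 24 CPM against 4.76 to 48.2 CPM (median 11.8), so these stayed inside. Disc1, Clu, Impact and the X and Y genes below were picked out after their values were seen.

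Imprinted genes, which are expressed from the allele of 1 parent and vary among stem cell lines, gave 3 of the 15. Of 19 tested, Plagl1, Peg10 and Impact were at least 2-fold higher in clone 20, beside 0.12% of all genes in either direction. The list was made with earlier results known and Impact was picked out after its values were seen, so nothing is read from the count. Impact, a translational regulator, was at 632 CPM in clone 20 and 308 CPM in clone 23, the highest and the lowest of the 11, against 313 to 562 CPM (median 416) in the others. Its edgeR p was 0.0144 unadjusted and 1 adjusted. Peg10, a retrotransposon-derived gene, was at 138 and 58.7 CPM against 14.5 to 112 CPM (median 47.1). Plagl1, a zinc finger regulator of the imprinted network, was at 17.6 and 7.87 CPM against 0.567 to 267 CPM (median 63.2). Both clones were under that median, but 4 of the others were also below clone 20. Both Peg10 and Plagl1 varied widely among the other clones, and their edgeR p was 0.327 and 0.699 unadjusted.

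Of 6 tested genes of the Y chromosome, Ddx3y, Eif2s3y and Uty had lower values in clone 20 than in clone 23. None was called, but the test took its spread from the other 9 clones. Among these, clone 24 had a sum of only 0.945 CPM over the 6 genes. For Ddx3y the log2 fold change was -0.95 with an SE of 1.92, so the test could not decide on a difference of this size. Over the 6 genes the sums were 289 CPM in clone 20 and 488 CPM in clone 23, a ratio of 0.592, against 0.945 to 546 CPM (median 398) in the others, of which 2 were below clone 20. The helicase gene Ddx3y was at 109 and 210 CPM against 0.063 to 226 CPM (median 176). The translation factor gene Eif2s3y was at 64.0 and 121 CPM, and the demethylase gene Uty at 51.4 and 86.3 CPM. Uba1y was nearly equal, at 57.5 and 61.0 CPM, and Zfy1 was at 6.62 and 8.88 CPM. Kdm5d was the other way, at 0.414 and 0.237 CPM, with 5 and 4 counts. Mid1, an X-linked ubiquitin ligase gene that crosses the pseudoautosomal boundary in the mouse, was at 854 CPM in clone 20 and 1591 CPM in clone 23, the lowest and the highest of the 11, against 891 to 1500 CPM (median 1205). Its log2 fold change was -0.90 ± 0.35 (SE), with an edgeR p of 0.0261 unadjusted and 1 adjusted.

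**Figure D5:**
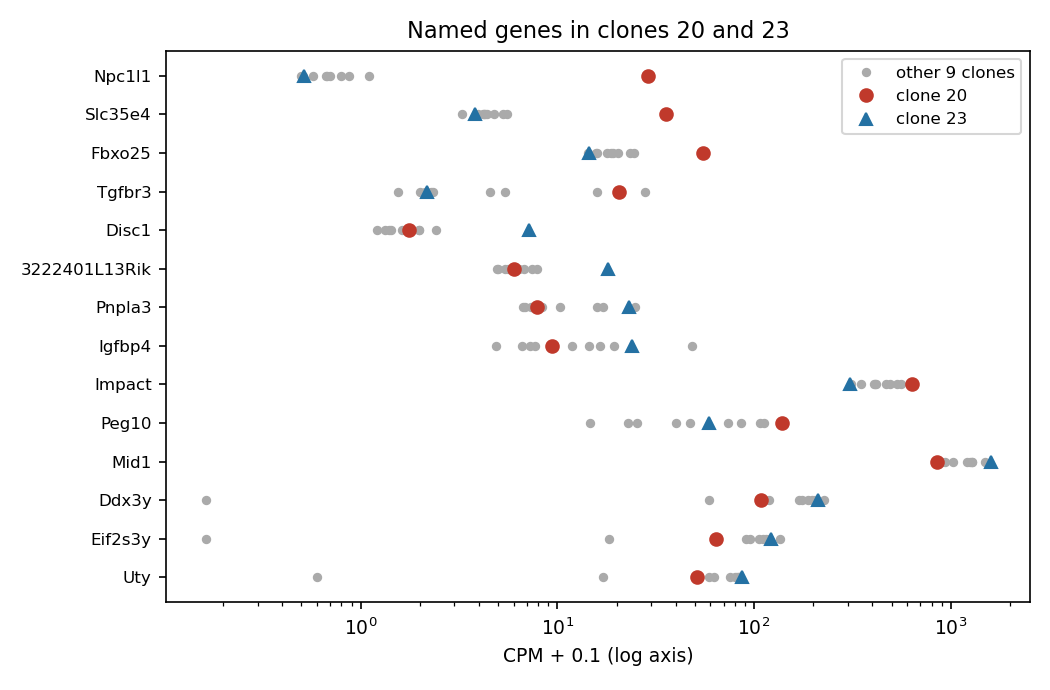
CPM (with 0.1 added, log axis) of 14 genes in clone 20 (red circles), clone 23 (blue triangles) and the other 9 clones (grey). Npc1l1, Slc35e4 and Fbxo25 have clone 20 outside the grey points and clone 23 among or next to them, and Disc1 and 3222401L13Rik the reverse.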

How the data were processed

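Total RNA of 11 clones was sequenced from TruSeq libraries, per the labels' protocols. The deposited table holds raw counts per Ensembl release 66 protein-coding gene. TopHat 1.4.0 and Bowtie 0.12.7 are named in the submitters' processing notes, with builds mm9 and hg19. The counter, its strand setting and its handling of reads from near-identical genes were not given in the sources used here. Symbols were found for 20777 genes and not for 1592. Chromosomes and gene order came from a GRCm38 annotation, a later build than the files', so no coordinates are given. Counts were scaled by TMM (edgeR 4.0.16) to CPM, and 12479 genes averaging 1 CPM or more were kept. The contrast of clone 20 with clone 23, and that of the pair with the other 9, used edgeR's quasi-likelihood test. DESeq2 1.42.0, other scalings, filters and folds, and leaving out clones were alternatives. On simulated counts for 12479 genes, clone 20 against clone 23 recovered 0, 5, 28 and 41 of 50 genes changed 1.5, 2, 4 and 8-fold, and the pair against the other 9 recovered 5, 24, 42 and 49 of 50. Outside genes named are the 15 each way with the largest fold in both clones, of which 1 is not reported here. Between clones they are the call and the 10 largest folds at 5 CPM or more. In the stretch they are Dsel, Kcnt2, flanking genes, list members and the 10 genes with most counts. The members and lists were chosen with earlier results of these data known.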

Additional observations from a re-analysis of the deposited data

Results flagged for a closer look

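Of 42 named values checked over the other 9 clones, 4 had 1 clone far from the rest. Far means a gap to the nearest clone, over the whole range, above Dixon's 95% critical value for 9 values. For normally distributed values chance gives about 1 in 20. These were unlogged CPM of genes chosen partly on the same clones, so that rate need not hold here. Fam19a5 was at 4.50 CPM in clone 19 and 1.61 to 2.80 CPM in the rest. Socs1 was at 2.45 CPM in clone 22 and 0.851 to 1.63 CPM in the rest. Pga5 was at 20.4 CPM in clone 26 and 0.982 to 9.27 CPM in the rest. Igfbp4 was at 48.2 CPM in clone 17 and 4.76 to 19.3 CPM in the rest. Not every gene named above was among the 42. Chit1, at 9.24 CPM in clone 19, and Kdm5d, at 7.22 CPM in clone 22, were not, though these clones were also far from the rest.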

How the results depend on the processing

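No result changed direction under the alternatives run, and the cause of the changes below was not tested. The count of genes called between clones 20 and 23 was 1, and became 3 by DESeq2, 0 with no filter, 0 at a mean of at least 5 CPM (which leaves out Npc1l1) and 0 to 1 on leaving out 1 clone. The pair against the other 9 gave 8 calls, 39 by DESeq2, 0 without the stretch genes and 0 to 6 on leaving out 1 clone. Genes higher in both clones in the stretch were 22 at 1.5-fold, 60 with a looser fold and 2 at 2-fold, and 22 to 29 on leaving out 1 clone. Outside it the higher genes were 44, and 84 with the looser fold, 12 at 2-fold, 22 at a mean of at least 5 CPM, 110 with no filter, 120 without clones 16, 17, 18 and 19, and 45 to 58 on leaving out 1 clone. The lower genes were 26, and 59 with the looser fold, 8 at 2-fold, 9 at a mean of at least 5 CPM, 59 with no filter, 63 without clones 16, 17, 18 and 19, and 27 to 57 on leaving out 1 clone. Fewer clones to clear let more genes through by construction. The stretch shift fell to 0.43 in clone 20 and 0.42 in clone 23 with no filter, and stayed at 0.56 to 0.58 and 0.53 to 0.55 on leaving out 1 clone. Without clones 16, 17, 18 and 19 the log2 distance of the pair from the other clones was 0.26 for Chrd, 0.41 for Runx1t1 and -0.43 for Acss2. No paired analysis was possible because the clones form 1 labelled group. With 1 library per clone, differences between clones 20 and 23 below 4-fold were rarely found on simulated counts. Those counts gave each gene the spread typical of its level, the same in all clones. Recovery for real genes, whose spread differs from gene to gene, can therefore be other than simulated.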
